A study of Mus musculus with 29 samples.

Results

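Old and young tibialis anterior muscle, a fast limb muscle of the lower leg, were compared across all miRNAs that could be measured in 10 of the 29 small RNA libraries of the series. The 5 young libraries came from C57BL/6 mice aged 6 months and the 5 old libraries from C57BL/6 mice aged 24 months. Both groups were labelled as controls, with no transgene, deletion or drug named, and whole muscle was extracted, so that its nerve, vessel, blood and connective tissue cells were sampled together with the fibres. The labels give no sex and do not tie libraries to animals, and the p-values therefore speak only of the spread among these libraries, which may in part be technical. Muscle from mice aged 6 months in a disuse model of atrophy (5 libraries) and serum of young (5 libraries) and old (4 libraries) mice were used only where a difference from them was tested. Of 1183 miRNAs in the table, 695 had a value for every library, and 619 of these were counted at least once in young or old muscle. The 341 miRNAs that passed a filter on low counts were tested; they held 99.97% of the counts, and 278 counted miRNAs were too rare to be tested.

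miRNAs are short RNAs cut in pairs of arms (5p and 3p) from a hairpin precursor, and they lower the output of mRNAs that pair with the seed, bases 2 to 8 of the mature strand. Skeletal muscle is dominated by a few muscle-restricted miRNAs of the miR-1 and miR-133 families. The Dlk1-Dio3 domain, an imprinted region that carries a large group of miRNAs, expresses its non-coding RNAs (Meg3, the transcript antisense to Rtl1, Rian and Mirg) from the maternal copy.

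The sequences below are those on which the comparison turns, with the seed in capitals and the rest in lower case, read 5′ to 3′ from RefSeq (GRCm38.p6). The leading falls came from one region of chromosome 12, and they are shown with miR-300-3p, the close relative of miR-381-3p, while the rises are represented by both arms of miR-342 and the miR-29 family. RefSeq held a sequence for 300 of the 341 tested miRNAs and for 19 of the 20 that passed the test.
miR-434-3p: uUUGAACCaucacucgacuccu
miR-127-3p: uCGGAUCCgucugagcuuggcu
miR-381-3p: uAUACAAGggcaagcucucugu
miR-300-3p: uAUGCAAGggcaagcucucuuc
miR-673-3p: uCCGGGGCugaguucugugcacc
miR-673-5p: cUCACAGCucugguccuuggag
miR-342-3p: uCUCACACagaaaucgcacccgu
miR-342-5p: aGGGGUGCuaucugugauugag
miR-29a-3p: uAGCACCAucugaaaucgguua
miR-29b-3p: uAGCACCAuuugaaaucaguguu
miR-29c-3p: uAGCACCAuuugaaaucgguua
The mature miR-434-3p lies at chr12:109594565-109594586 and miR-127-3p at chr12:109592888-109592909, both on the plus strand opposite an exon of Rtl1. The mature miR-381-3p lies at chr12:109726870-109726891 on the plus strand, outside any annotated gene. Both arms of miR-342 lie in an intron of Evl on the plus strand, the 3p arm at chr12:108658680-108658702. The mature miR-29a-3p lies at chr6:31062673-31062694 on the minus strand, outside any annotated gene.

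The libraries held between 268350 and 2588831 miRNA counts in young muscle and between 1349168 and 5943445 in old muscle, so that 3 counts in a library stood for 0.505 to 11.2 CPM (counts per 1000000, scaled between libraries by the TMM method where levels are given). Depth moved with age group: young muscle 1, 3 and 4 were the shallowest of the 10. Floors of this kind cover counting error only, while the standard errors given below also take in the spread between libraries. The tissue label was borne out by its markers. The striated muscle list held 49.3 to 56.6% of counts in young and 46.3 to 58.9% in old libraries. Most of this was miR-133a-3p, followed by miR-486-5p and miR-3107-5p. By contrast, miR-1a-3p held only 565 to 1356 CPM in young and 442 to 771 CPM in old muscle. Of the 13 listed, miR-1b-3p was the only one at 0. Liver markers held at most 0.000598% and erythroid markers at most 0.0119% of counts in any of the 10 libraries.

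The broad makeup of old and young libraries did not differ beyond the spread between them. The most abundant miRNA in all 10 was miR-133a-3p, a miRNA restricted to striated muscle, with 43.2% ± 4.61 (SD, n = 5) of counts in young and 46.3% ± 5.68 (SD, n = 5) in old muscle. That difference of 3.03 percentage points gave p = 0.357 in an exact two-sided permutation test, whose smallest possible p here was 0.00794. The 10 most abundant miRNAs took 74.6% ± 2.36 of young and 74.6% ± 3.25 of old counts (SD, n = 5 each, exact permutation p = 0.992). After thinning each library to the depth of the shallowest, 363 to 375 miRNAs were detected in young and 368 to 384 in old muscle, which did not differ beyond the spread (exact permutation p = 0.143, and 0.0476 without young muscle 2). The Benjamini-Hochberg adjusted values of these 3 tests were 0.536, 0.992 and 0.429.

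Against that background, 20 of the 341 tested miRNAs differed between old and young muscle at an adjusted p under 0.05 in edgeR's quasi-likelihood test, 5.87% of those tested. Of these, 16 were lower in old muscle (4.69%) and 4 were higher (1.17%), and 73 miRNAs (21.4%) had an unadjusted p under 0.05. For each of the 20, all 5 old libraries lay on the same side of the young median. As the 20 were called from these same libraries, this adds no support. It also held for miRNAs that did not pass, such as miR-149-5p and miR-486-5p. In 11 of the 20 the old and young libraries did not overlap, against 12 of all 341 (3.52%), of which 9 were lower (2.64%) and 3 higher (0.880%). The calls ran over the whole range of abundance. Among 71 miRNAs with a mean under 10 CPM, 3 were lower and 0 higher by edgeR. From 10 to 100 CPM, 9 of 148 were lower and 2 higher. Between 100 and 1000 CPM, 1 of 71 was lower and 1 higher, and above 1000 CPM 3 of 51 were lower and 1 higher. The median standard error of the log2 change narrowed from 0.42 in the lowest class to 0.18 in the highest.

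**Figure D1:**
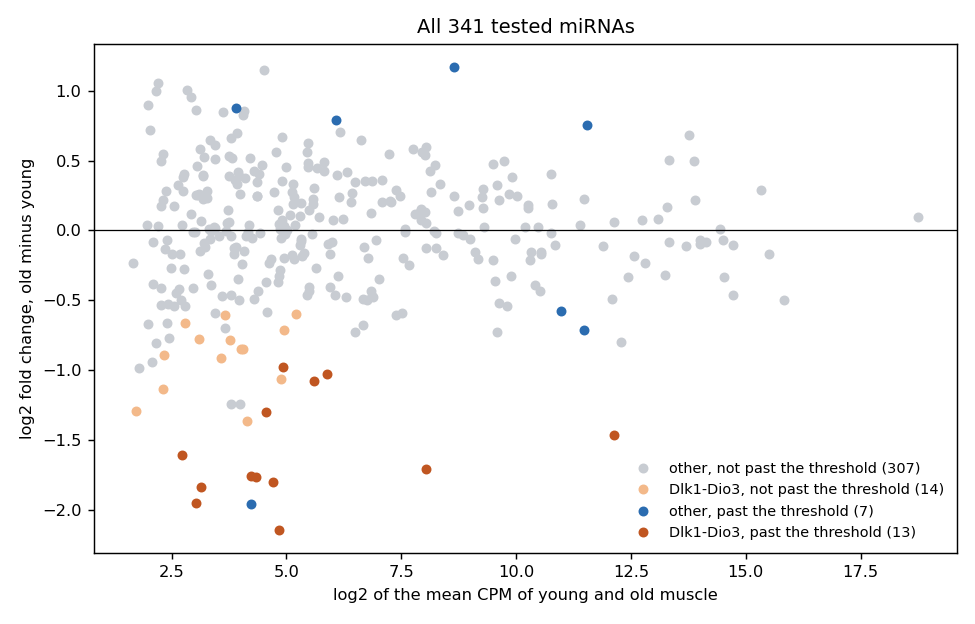
Log2 change between old and young muscle (vertical axis) against the log2 mean CPM of both groups (horizontal axis), 1 point for each of the 341 tested miRNAs. The 13 Dlk1-Dio3 miRNAs past the threshold are dark orange and the 14 others of the domain light orange, all 27 below 0, while the 7 other miRNAs past the threshold are blue.

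The Dlk1-Dio3 miRNAs made up most of the falls. The domain was counted here as a chosen list that runs from beside Meg3 to Mirg. It leaves out miR-1247-5p, which lies further on in an exon of Dio3os and did not pass. Of the list, 53 miRNAs had a value for every library and 27 could be tested. Of these 27, 13 fell, 0 rose and 14 did not pass, and 24 had an unadjusted p under 0.05. With upper-quartile factors 22 of the 27 fell, among 34 falls of all 341, and the median of all tested miRNAs moved to -0.21. With all libraries thinned to the shallowest, 5 of the 9 that could then be tested fell, among 7 falls of 184. All 27 log2 changes were below 0, from -2.14 to -0.60, with a median of -1.08, against -0.01 for all tested miRNAs and 0.03 for the 314 outside the domain. Summed over the domain, its miRNAs took 0.811, 0.656, 0.717, 0.807 and 0.940% of the counts in young muscle 1 to 5. In old muscle 1 to 5 they took 0.286, 0.264, 0.271, 0.264 and 0.359%. The groups were far apart, and they stayed apart when the abundant miR-127-3p was left out of the sum (0.0984 to 0.141% in young and 0.0402 to 0.0503% in old muscle). In bulk tissue, fewer cells of a type and less RNA per cell cannot be told apart.

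The most abundant member was miR-127-3p, processed from the transcript that runs antisense to Rtl1, a retrotransposon-derived gene that miR-127 is known to target. Young muscle 1 to 5 held 6963, 5649, 5682, 6246 and 8601 CPM, and old muscle 1 to 5 held 2547, 1974, 2201, 1960 and 3337 CPM. No old library reached the lowest young one, and the log2 change was -1.46 ± 0.19 (SE, n = 5 each, edgeR adjusted p = 1.79e-05). Its neighbour miR-434-3p held 368, 352, 345, 570 and 396 CPM in the young libraries and 140, 102, 150, 81.0 and 145 CPM in the old ones. These groups did not overlap either, and the log2 change of -1.71 ± 0.21 had the smallest p of all (edgeR adjusted p = 1.39e-05). The same transcript carries miR-431-5p, which fell by 1.30 ± 0.32 on the log2 scale (edgeR adjusted p = 0.00969) with overlapping libraries; without young muscle 5 it changed by -1.06 (edgeR adjusted p = 0.0629). The partner arm miR-434-5p, at 17.3 ± 7.65 CPM (SD, n = 5) in young muscle, changed by -0.78 ± 0.29 and did not pass (edgeR adjusted p = 0.108).

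Low counts limited miR-136-5p, from the same antisense transcript. It was at 0 in young muscle 3, had 12.6 to 19.2 CPM in the other young libraries and 1.81 to 4.53 CPM in the old ones. Its log2 change was -1.95 ± 0.44 (edgeR adjusted p = 0.00509), with that young library below the old range. Of 7 tested miRNAs of this stretch 4 fell, with a median of -1.30.

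The largest fall of all 341 was that of miR-381-3p, from the part of the domain between Rian and Mirg. Young muscle 1 to 5 held 51.0, 48.8, 30.6, 36.7 and 66.0 CPM, against 18.8, 8.13, 7.92, 5.83 and 10.7 CPM in old muscle 1 to 5. The highest old library was below the lowest young one, and the log2 change was -2.14 ± 0.29 (edgeR adjusted p = 1.84e-05). The hairpin of miR-300-3p lies close by, and its mature strand differs from miR-381-3p at 3 of 22 bases, A4G, G21U and U22C (the miR-381-3p base first, counted from 1 at the 5′ end), so that 1 of the 3 lies in the seed. At 25.5 to 64.0 CPM in young and 16.9 to 32.3 CPM in old muscle, miR-300-3p overlapped between groups and changed by -0.72 ± 0.26 (edgeR adjusted p = 0.108). The difference between the changes of this pair was not tested.

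Of 16 tested miRNAs of the Rian to Mirg stretch 6 fell, with a median of -1.002. Besides miR-381-3p these were miR-541-5p (-1.76 ± 0.30), miR-341-3p (-1.84 ± 0.37), miR-410-3p (-1.61 ± 0.40), miR-411-5p (-1.03 ± 0.23) and miR-667-3p (-0.98 ± 0.22), with edgeR adjusted p from 0.000377 to 0.0122. Young muscle held 14.6 to 45.95 CPM of miR-541-5p and old muscle 7.23 to 10.7 CPM, without overlap. The libraries did not overlap for miR-341-3p, miR-410-3p and miR-667-3p either, and for miR-411-5p the highest old value (55.0 CPM) passed the lowest young one (51.7 CPM). The rarest call, miR-410-3p, had 2 counts in young muscle 1, and it was lost when young muscle 2 or young muscle 5 was left out, with edgeR adjusted p = 0.0506 each time. With a log2 change of -1.06 ± 0.33, miR-485-5p of this stretch stood just beyond the threshold (edgeR adjusted p = 0.0576).

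Closest to Meg3, both arms of miR-673 fell by similar amounts. The 3p arm held 21.9, 33.3, 24.9, 34.98 and 39.1 CPM in young muscle 1 to 5 and 8.30, 7.68, 7.92, 7.77 and 15.2 CPM in old muscle 1 to 5. These did not overlap, and the log2 change was -1.76 ± 0.27 (edgeR adjusted p = 9.39e-05). The 5p arm fell by 1.80 ± 0.31 (edgeR adjusted p = 0.000377), with an overlap between young muscle 1 (18.2 CPM) and old muscle 5 (21.4 CPM). Beside them, miR-540-3p fell by 1.08 ± 0.26 (edgeR adjusted p = 0.00765) and did not overlap, at 51.0 to 88.1 CPM in young and 21.3 to 42.8 CPM in old muscle. In all, 3 of 4 tested miRNAs of this stretch fell, with a median of -1.42.

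On chromosome 12, no tested miRNA outside the domain list, which stops at Mirg, fell. Counted from the start of Meg3 (chr12:109541001-109571726, plus strand), the 26 tested members with a position lay 30.99 to 202.71 kb downstream. Upstream, both arms of miR-345 at -704.03 kb changed by 0.45 ± 0.23 and 0.19 ± 0.28 and did not pass. Downstream, miR-1247-5p at 737.05 kb, in an exon of Dio3os and so near the Dio3 end of the domain, was not in the list. It changed by 0.08 ± 0.22. Of 9 tested miRNAs of chromosome 12 outside the list, miR-1247-5p among them, 0 fell and 1 rose by edgeR, with a median of 0.19.

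**Figure D2:**
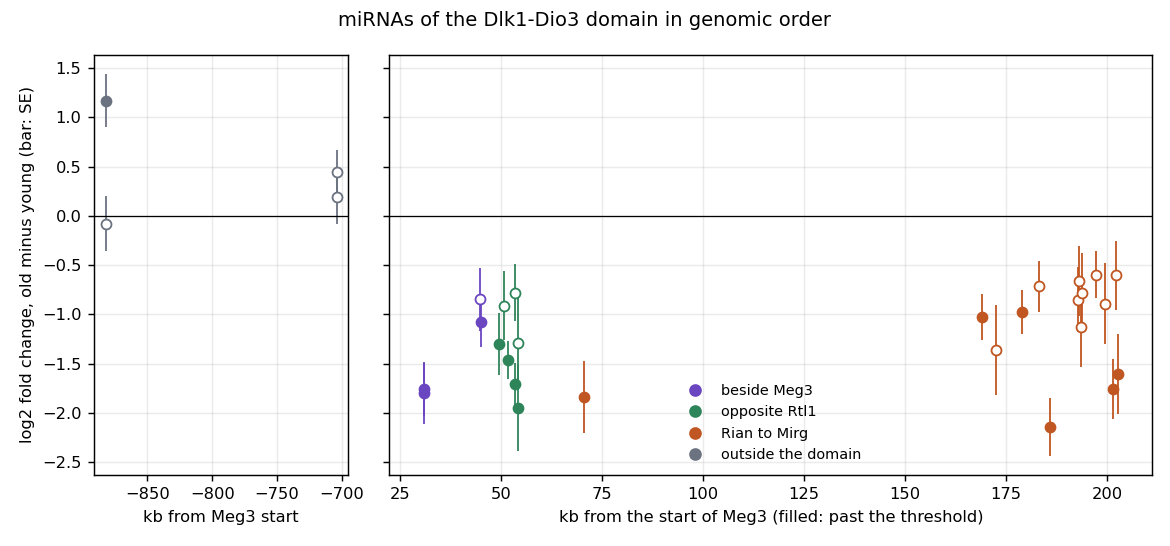
Log2 change between old and young muscle with its SE (vertical axis) against distance from the start of Meg3 in kb (horizontal axis, broken between panels of different scale), for the miRNAs of the Dlk1-Dio3 domain by stretch and for the nearest tested miRNAs upstream. Filled points passed the threshold, and every domain point lies below 0 while 3 of the 4 upstream points lie above it.

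The 13 domain miRNAs that fell carried 13 different seeds, and all 19 called miRNAs with a sequence had a seed of their own. The seed AGCACCA of miR-29a-3p was the only one of the 19 shared with other tested miRNAs. Each of the other seeds had 1 tested miRNA with a sequence, so that a grouping of the calls by seed could hardly appear. By position, 13 of the 20 calls (65%) were in the domain, which held 27 of the 341 tested miRNAs.

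Outside the domain 3 miRNAs fell. The change of miR-455-3p, whose hairpin sits in a Col27a1 intron, a collagen gene (chr4:63256904-63256924, plus strand), was -1.96 ± 0.37 (edgeR adjusted p = 0.00118). It varied widely in young muscle, at 7.29, 25.8, 30.6, 17.5 and 63.6 CPM in libraries 1 to 5, against 7.22, 3.16, 11.4, 9.72 and 10.4 CPM in old muscle 1 to 5. Young muscle 1 lay within the old range. The fall of miR-151-3p was -0.71 ± 0.19 (edgeR adjusted p = 0.0223), with 2585 to 4420 CPM in young and 1702 to 3046 CPM in old muscle. That of let-7d-3p, the minor arm of a let-7 hairpin on chromosome 13 (chr13:48536024-48536045, minus strand), was -0.58 ± 0.17 (edgeR adjusted p = 0.0387). Its values ran from 1822 to 3099 CPM in young and from 1378 to 2090 CPM in old muscle, and the major arm let-7d-5p changed by 0.08 ± 0.17. The call for miR-151-3p was lost when any of 6 libraries was left out (young muscle 1 and 2, old muscle 1 to 4), with edgeR adjusted p from 0.0653 to 0.120. For let-7d-3p it was lost without any of 8 libraries, all but young muscle 5 and old muscle 5.

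Among the 4 rises, miR-29a-3p, of a family known to repress collagen mRNAs, was the most abundant. Young muscle 1 to 5 held 1884, 2495, 2131, 2148 and 2435 CPM, and old muscle 1 to 5 held 3927, 4094, 4173, 2893 and 3634 CPM. Every old library was above every young one, and the log2 change was 0.75 ± 0.16 (edgeR adjusted p = 0.00294). The relatives with the same seed changed by 0.67 ± 0.30 (miR-29b-3p) and 0.58 ± 0.21 (miR-29c-3p), with edgeR adjusted p of 0.193 and 0.108. All 7 tested miRNAs of the family had a log2 change above 0, from 0.48 to 1.15 with a median of 0.58, and 1 passed. The mature miR-29c-3p differs from miR-29a-3p by C10U alone (from the 5′ end), so that both counts are uncertain, since how reads matching both were counted is not given in the sources used here. With the 3 shallowest young libraries left out, miR-29a-3p changed by 0.66 (edgeR adjusted p = 0.0699).

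The largest rise was that of miR-342-3p, abundant in lymphocytes and encoded in an intron of Evl. Young muscle 1 to 5 held 204, 241, 320, 296 and 172 CPM, and old muscle 1 to 5 held 442, 461, 1060, 499.5 and 304 CPM. Old muscle 5 lay below the highest young library, and old muscle 3 stood far above the rest. The log2 change was 1.17 ± 0.27 (edgeR adjusted p = 0.00679), and it stayed between 0.82 and 1.36 and past the threshold with any of the 10 libraries left out. Other leukocyte miRNAs did not pass: miR-150-5p changed by 0.01 ± 0.18, miR-223-3p by 0.85 ± 0.34 and miR-142-3p by 0.52 ± 0.36. Of the 7 tested leukocyte markers 1 rose and 0 fell, with a median of 0.04. All 8 in the table together took 1.24 to 2.80% of counts in young and 1.88 to 2.94% in old muscle, none of them at 0 in all 10 libraries, and their part in the rise of miR-342-3p was not tested.

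The 5p arm of the same hairpin did not move with it: miR-342-5p held 41.0 ± 9.23 CPM in young and 39.0 ± 19.1 CPM in old muscle (SD, n = 5 each), a log2 change of -0.08 ± 0.28. The log2 ratio of 5p to 3p counts was -2.73, -2.69, -2.61, -2.57 and -2.16 in young muscle 1 to 5. In old muscle 1 to 5 it was -4.15, -3.67, -3.88, -3.80 and -3.51. The groups did not overlap, and the ratio was lower in old muscle, with a difference of -1.25 ± 0.28 (SE, limma adjusted p = 0.0268). It was the only one of 82 hairpins with both arms tested to pass (1.22%), and 9 had an unadjusted p under 0.05. Leaving out any of 8 libraries took the adjusted p to between 0.0506 and 0.0994, and with every library thinned to the depth of the shallowest the difference was -0.64 (limma adjusted p = 0.492). Among the 8 others at an unadjusted p under 0.05, the let-7d ratio differed by 0.66 ± 0.29 and the miR-151 ratio by 0.94 ± 0.32, with limma adjusted p of 0.383 and 0.294.

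The other rises were smaller in abundance. The neural-enriched miR-138-5p, encoded by hairpins on chromosomes 8 and 9, had 36.4 to 65.2 CPM in young and 64.8 to 111 CPM in old muscle, with a log2 change of 0.79 ± 0.22 (edgeR adjusted p = 0.0249), a call lost without young muscle 5 or old muscle 1. All 5 tested neural markers had a log2 change above 0, with a median of 0.42, and miR-138-5p alone passed. The 9 in the table took 0.0561 to 0.0885% of counts in young and 0.0676 to 0.112% in old muscle, with miR-124-5p at 0 in all 10. Their part in its rise was not tested. The minor arm miR-92a-1-5p of the miR-17-92 cluster (chr14:115044437-115044459, plus strand, an exon of Mir17hg) had 6.996 to 13.4 CPM in young and 13.9 to 22.0 CPM in old muscle, without overlap. Its log2 change was 0.88 ± 0.24 (edgeR adjusted p = 0.0263), and 0.0607 was the adjusted p without old muscle 1. Of its cluster, miR-18a-3p changed by 0.70 ± 0.26, miR-20a-5p by 0.61 ± 0.41, miR-17-5p by 0.47 ± 0.24, miR-19b-3p by -1.24 ± 0.64 and the abundant miR-92a-3p by -0.08 ± 0.16, and none of these passed. The signs of miR-19b-3p and miR-92a-3p turned without the shallow young libraries (0.55 and 0.21). Another miRNA with old libraries all above the young ones, miR-26b-3p (18.2 to 27.7 against 29.2 to 48.9 CPM), did not pass (0.67 ± 0.23, edgeR adjusted p = 0.0987).

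**Figure D3:**
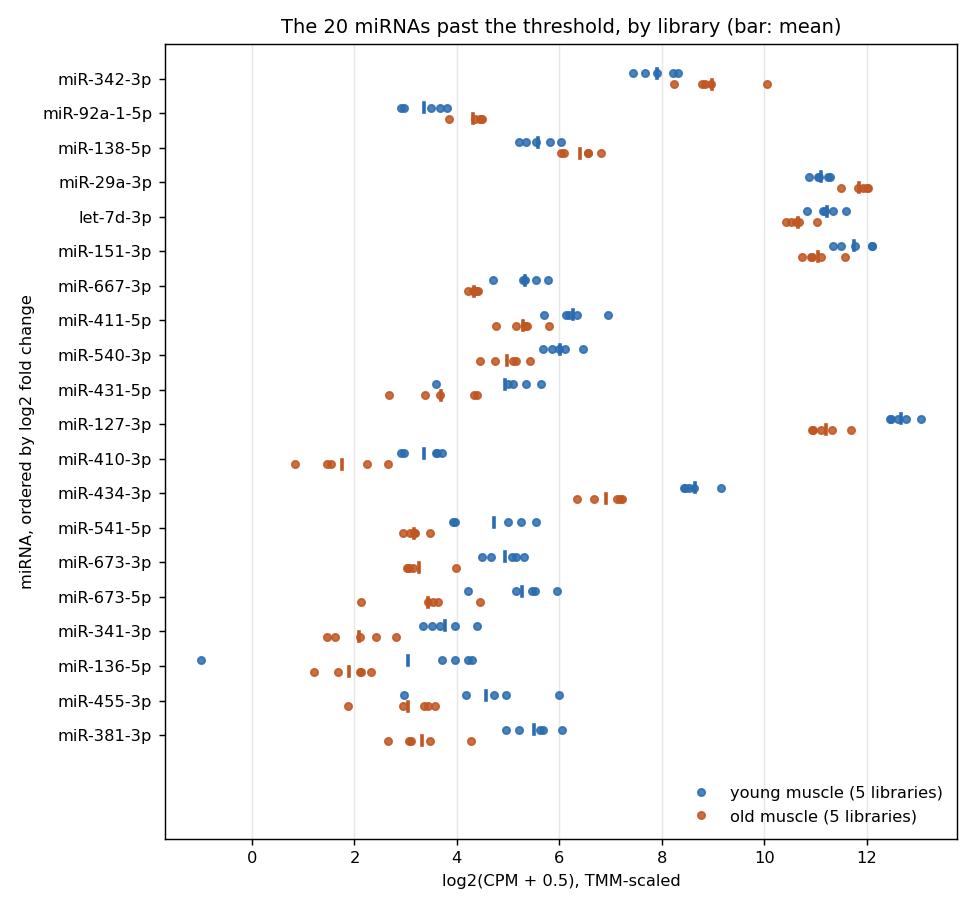
Level of the 20 miRNAs past the threshold in each library, as log2(CPM + 0.5) on the horizontal axis, with 1 point per library (blue for 5 young, orange for 5 old) and a bar for each group mean. The old mean lies to the left for 16 miRNAs and to the right for the upper 4, and the points of the groups overlap for 9 of the 20. The isolated blue point of miR-136-5p is the young library with 0 counts.

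Depth differed between the groups, and the comparison was refitted with depth taken into account. With the log2 library total in the model, 19 miRNAs passed by edgeR and 15 of the 20 were among them. Without the 3 shallow young libraries, 22 passed and 14 of the 20 were among them, including 12 of the 13 domain miRNAs. The exception, miR-667-3p, then changed by -0.67 (edgeR adjusted p = 0.151). Outside the domain miR-29a-3p, miR-138-5p, miR-92a-1-5p, miR-151-3p and let-7d-3p were lost too, so that miR-342-3p was the only rise of the 20 to stay. With the library total in the model the same calls were lost, except for miR-29a-3p, which stayed. The part of depth in the single changes was not tested further.

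The miRNAs of the striated muscle list did not pass. All 11 tested miRNAs of the list missed the threshold in edgeR, 5 of them with an unadjusted p under 0.05. Their median log2 change was -0.46, with 7 below 0 and 4 above. Both arms of miR-486 and of miR-3107 are in the list, all below 0, and the median is the value of miR-3107-5p. The others were mixed: miR-133a-3p changed by 0.10 ± 0.14, miR-133b-3p by 0.38 ± 0.23, miR-133a-5p by -0.60 ± 0.29 and miR-208b-3p by -0.50 ± 0.50. The miR-1 family member miR-1a-3p, which restrains muscle precursor growth, held 565 to 1356 CPM in young and 442 to 771 CPM in old muscle (-0.52 ± 0.30). Slow-fibre miR-499-5p, encoded within the slow myosin gene Myh7b, changed by 0.45 ± 0.22 and miR-206-3p, which rises in regenerating and denervated fibres, by 0.21 ± 0.32. The sign of miR-206-3p turned with upper-quartile scaling (-0.01). The abundant miR-486-5p came closest, at -0.50 ± 0.16 (edgeR adjusted p = 0.0783), and its near-identical copy miR-3107-5p changed by -0.46 ± 0.16, so that both counts are uncertain. Both passed when old muscle 5 or young muscle 5 was left out.

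The other lists are given as counts, beside 5.87% of all tested miRNAs past the threshold. Of the 17 tested let-7 and miR-98 miRNAs, 1 fell (let-7d-3p) and their median was -0.08. Among 14 of the miR-17-92 group and its paralogues 1 rose (miR-92a-1-5p), with a median of 0.24. The miR-378 family, whose miR-378a is encoded within the mitochondrial regulator gene Ppargc1b, had 5 of 5 log2 changes above 0 (median 0.29), with miR-378a-5p at 0.60 ± 0.21 (edgeR adjusted p = 0.0987). For miR-34a-5p, a target of p53 linked with senescence, young libraries held 58.6 to 95.7 CPM and old libraries 68.5 to 165 CPM (0.65 ± 0.24, edgeR adjusted p = 0.108). The inflammation list had 0 of 8 past the threshold in edgeR, 1 at an unadjusted p under 0.05 and a median of 0.02, with miR-155-5p at 0.41 ± 0.19 and miR-21a-5p at 0.27 ± 0.20. The fibroblast and smooth muscle markers had 0 of 10 past it, 0 of them also at an unadjusted p under 0.05. They took 1.43 to 2.06% of counts in young and 1.15 to 5.30% in old muscle, the top being old muscle 4, where miR-145a-5p was high. Endothelial markers took 0.0780 to 0.235% in young and 0.0966 to 0.157% in old muscle, with 0 of 2 past the threshold and miR-126a-5p at -0.72 ± 0.28. Just outside the threshold, miR-149-5p changed by 0.50 ± 0.15 (edgeR adjusted p = 0.0519), miR-181c-5p by -0.68 ± 0.21 (0.0586) and miR-29b-2-5p by 1.15 ± 0.37 (0.0666).

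**Figure D4:**
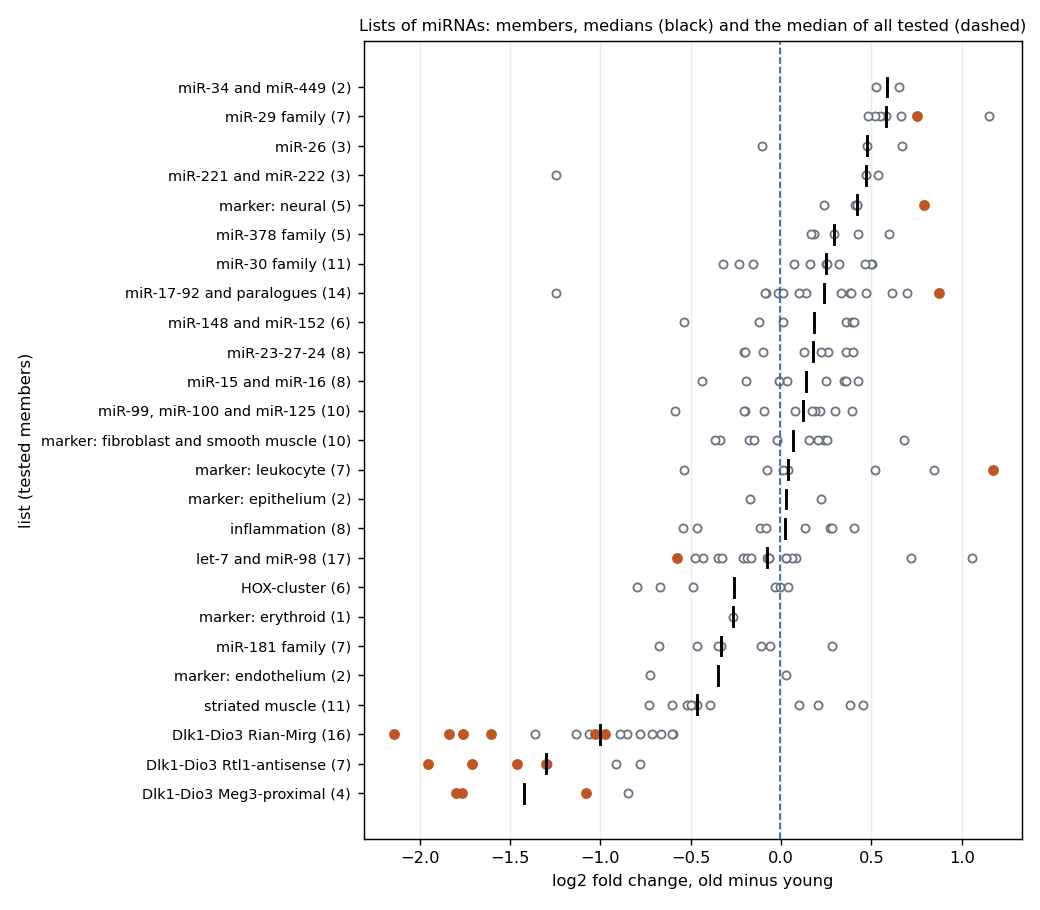
Log2 change between old and young muscle (horizontal axis) of the tested members of each list (vertical axis, number tested in brackets), with the list median in black and the median of all 341 dashed. Filled orange points passed the threshold, and the 3 Dlk1-Dio3 stretches at the bottom have medians of -1.42, -1.30 and -1.002.

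Whether the old pattern differed from disuse atrophy in mice aged 6 months was tested directly. Between old and disuse muscle 12 of 341 miRNAs passed (3.52%, 48 at an unadjusted p under 0.05), and 8 of these were among the 20. All 8 were lower in old than in disuse muscle, with log2 differences (old minus disuse) of -1.51 ± 0.21 for miR-434-3p, -1.18 ± 0.19 for miR-127-3p and -1.84 ± 0.29 for miR-381-3p. Both arms of miR-673 (3p -1.26 ± 0.27, 5p -1.40 ± 0.30), miR-341-3p (-1.59 ± 0.36), miR-667-3p (-0.98 ± 0.21) and let-7d-3p (-0.72 ± 0.17) were the other 5. The edgeR adjusted p of the 8 ran from 0.000103 to 0.0111. Set side by side, and sharing the 5 young libraries, disuse differed from young muscle by -0.20 ± 0.21 for miR-434-3p and -0.29 ± 0.19 for miR-127-3p. For miR-381-3p it differed by -0.30 ± 0.28. Other domain miRNAs had larger values there: disuse differed from young muscle by -0.97 ± 0.31 for miR-541-5p, -0.79 ± 0.42 for miR-136-5p, -0.66 ± 0.26 for miR-540-3p and -0.51 ± 0.27 for miR-673-3p, none of which passed. Of these 4, miR-673-3p alone passed between old and disuse muscle, and the others differed by -0.79 ± 0.30, -1.16 ± 0.43 and -0.42 ± 0.25 there (edgeR adjusted p from 0.148 to 0.468). Disuse muscle 1 to 5 held 313, 297, 501, 376 and 298 CPM of miR-434-3p, above every old library.

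One miRNA passed between disuse and young muscle (0.293% of 341), and it was miR-455-3p, at -1.83 ± 0.39 (edgeR adjusted p = 0.0336). Old and disuse muscle differed in it by -0.13 ± 0.40. In miR-92a-1-5p, disuse differed from young muscle by 1.03 ± 0.25 (edgeR adjusted p = 0.0652) and old from disuse by -0.15 ± 0.21. The differences between old and disuse muscle for the other rises were 0.26 ± 0.16 (miR-29a-3p), 0.39 ± 0.27 (miR-342-3p) and 0.28 ± 0.21 (miR-138-5p), none of which passed.

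**Figure D5:**
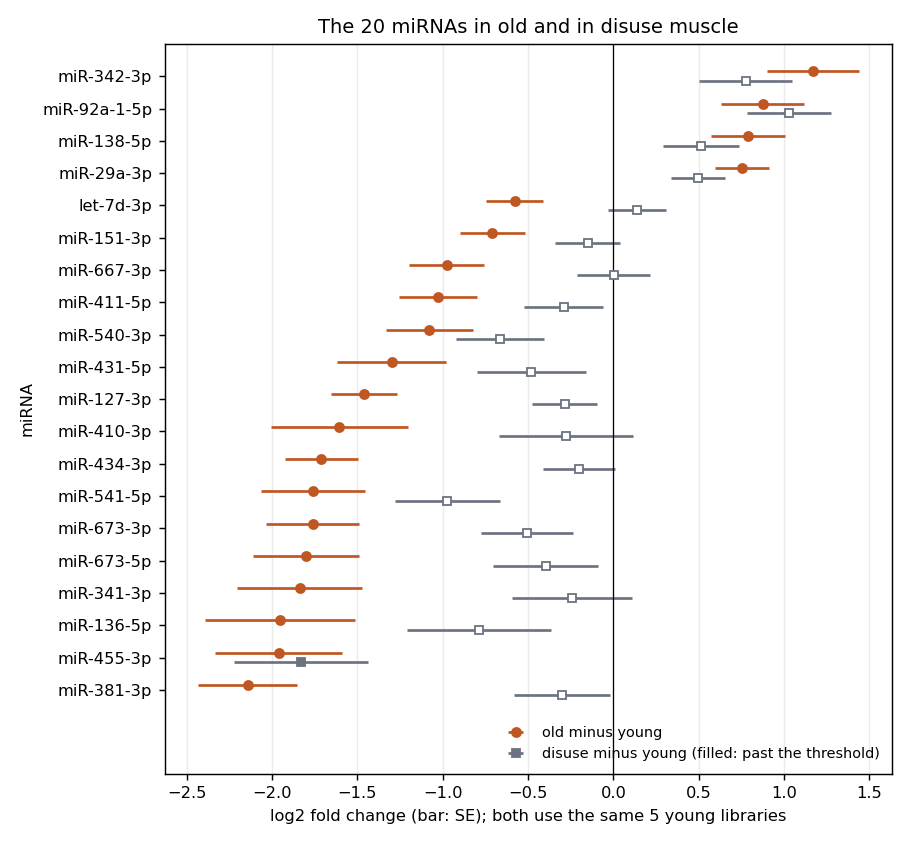
Log2 change of the 20 miRNAs in old muscle (orange circles) and in disuse muscle (grey squares) against the same 5 young libraries, with SE bars, on the horizontal axis. The only filled square, miR-455-3p, lies beside its circle at -1.83 and -1.96, while the squares of the 13 domain miRNAs lie between -0.97 (miR-541-5p) and 0.00127 (miR-667-3p).

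In serum, which carries miRNAs of many tissues, old and young mice differed in 16 of 165 tested miRNAs (9.70%). Of the 20, 6 could be tested there. The serum change of miR-127-3p was -1.78 ± 0.31 (edgeR adjusted p = 0.00306), on 84 to 370 counts in young and 28 to 102 counts in old libraries. It was -1.40 ± 0.45 for miR-434-3p (edgeR adjusted p = 0.0571), on 3 to 38 and 1 to 9 counts. The others did not pass, at 0.64 ± 0.23 for miR-29a-3p, 0.88 ± 0.42 for miR-342-3p, -0.34 ± 0.28 for miR-151-3p and 0.38 ± 0.27 for let-7d-3p. A test of the difference between the muscle and the serum change over all 29 libraries could be fitted for 12 of the 20, of which 6 had passed the count filter in serum, and 0 of the 12 passed by edgeR against 2 of 241 overall (0.830%, 34 at an unadjusted p under 0.05). The nearest was let-7d-3p, with a difference of -1.09 ± 0.32 (edgeR adjusted p = 0.0764). For miR-127-3p it was 0.18 ± 0.37 and for miR-434-3p -0.42 ± 0.51. For several of the 12 serum counts were too few for a difference to be detectable at this depth: miR-667-3p had 1 count in the 9 young and old serum libraries (2.47 ± 2.88), and miR-381-3p had 0 to 5 counts a library (-1.60 ± 1.00).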

How the data were processed

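Small RNA libraries were made from 2 µg of total RNA per muscle with up to 15 PCR cycles and no molecular identifiers named, per the labels' protocols, so counts are reads and not molecules. The authors deposited 1 table of raw read counts per miRNA; Bowtie and mm10 are named in the submitters' processing notes, and the rule for reads matching several miRNAs is not given in the sources used here. Of 1183 lines, 488 hold 28 values in place of 29 and were left out (0.054% of young and old muscle counts). The file does not show which library these lines lack; that share, and the alternative that adds them, read their values from the right end of the line. There were 0 unused columns.

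Counts of the 15 muscle libraries (3 groups) were filtered with filterByExpr and fitted with edgeR 4.0.16 (TMM, quasi-likelihood, Benjamini-Hochberg over 341 miRNAs), and contrasts were taken from this 1 fit. The interaction with serum was fitted over 29 libraries. Arm ratios, log2 of (5p + 0.5) over (3p + 0.5) counts, were fitted with limma 3.58.1 with an intensity trend. DESeq2 1.42.0 and limma-voom were alternatives, with scaling, filter, depth and left-out libraries. The edgeR and limma steps were tested on simulated data. Library composition was compared by exact permutation. Hairpin positions and sequences are from RefSeq (GRCm38.p6) and host genes from GENCODE vM21; mm10 is the same assembly.

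Members and lists were chosen with earlier results of these data known. Named were all miRNAs past the threshold, their partner arms and seed relatives, the 10 most abundant, the striated muscle list, up to 3 per other list and the next 5 by p. Neighbours on chromosome 12 and members of the miR-17-92 cluster were named for their position. miR-26b-3p was named after its values were seen. Pairs of replicate numbers were checked: deviations of same-numbered young and old libraries correlated between -0.0944 and 0.0855, so the numbers were not used as pairs.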

Additional observations from a re-analysis of the deposited data

Results flagged for a closer look

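In each group of 5, the library at either end was set against the other 4 by Dixon's criterion (0.71 for 5 samples), over 212 groups of values; chance flags about 1 in 20 groups. In young muscle, 1 library stood apart in miR-434-3p (young muscle 4, 570 CPM against 345 to 396), miR-29a-5p (young muscle 4, 31.5 against 10.9 to 13.4), miR-300-3p (young muscle 5, 64.0 against 25.5 to 36.4), the miR-342 log2 arm ratio (young muscle 5, -2.16 against -2.73 to -2.57) and the fibroblast and smooth muscle list (young muscle 5, 1.43% of counts against 1.91 to 2.06%).

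Old muscle 5 stood apart most often among the old libraries. It held 15.2 CPM of miR-673-3p (7.68 to 8.30 in the other 4), 13.9 of miR-92a-1-5p (19.9 to 22.0), 65099 of miR-486-5p (42587 to 46071), 30461 of miR-3107-5p (19745 to 22345) and 221 of miR-206-3p (115 to 143). Its miR-126a log2 arm ratio was 0.20 (-0.26 to -0.13), and its Dlk1-Dio3 miRNAs took 0.359% of counts (0.264 to 0.286%), still below every young library. Old muscle 3 stood apart in both arms of miR-342, with 1060 CPM of miR-342-3p (304 to 499.5) and 72.0 of miR-342-5p (24.9 to 36.1). Old muscle 1 stood apart in miR-26b-5p, at 1086.5 CPM (728 to 832).

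The age change differed between muscle and serum for 2 of 241 miRNAs. For miR-15b-5p the difference of log2 changes was 1.602 (edgeR adjusted p = 0.0391), from 0.43 in muscle and -1.29 in serum. For miR-211-5p it was 4.41 (edgeR adjusted p = 0.00715), from 1.01 in muscle and -3.53 in serum, on 173 serum counts in young and 10 in old libraries summed and 32 and 161 in muscle. Neither passed between old and young muscle alone.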

How the results depend on the processing

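The 20 calls became 36 with upper-quartile factors (2 higher and 34 lower, 5.56% higher against 20%), where the median of all miRNAs moved to -0.21, and 11 with libraries thinned to the shallowest (4 higher, 7 lower, of 184 tested; 10 of the 20 among them). DESeq2 made 29, limma-voom 24, and leaving out 1 library 17 to 27. Fitting only the 10 young and old libraries made 16 calls of 325 tested, all among the 20. The calls of let-7d-3p, miR-151-3p and miR-92a-1-5p were lost there, and miR-136-5p failed the filter. All tested domain members stayed below 0 in all 23 alternatives. Of 449 values of called miRNAs that could be tested there, 403 kept direction and threshold, 46 lost the threshold and 0 changed sign. Calls that failed an alternative's filter are not among the 449. When thinned, these were miR-136-5p, miR-341-3p, miR-410-3p, miR-431-5p, miR-455-3p, miR-541-5p, miR-673-3p and miR-92a-1-5p. At 10 CPM in 5 libraries they were miR-136-5p and miR-410-3p. The replicate block left 18 calls, without let-7d-3p and miR-92a-1-5p; 0 of 5 old and young libraries correlated best with their own number. The 12 calls between old and disuse muscle ran from 8 to 18 with 1 library left out.

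The 2 calls of the difference from serum became 6 with DESeq2's size factors and 1 to 9 with 1 library left out (1 without young muscle 1, young serum 5 or old serum 2; 4 or more without young muscle 5, old muscle 4, young serum 1 or 4, or old serum 3 or 4). The arm ratio call (limma) became 0 with only the 10 young and old libraries (8 at an unadjusted p under 0.05), thinned (6), with the replicate block (7) and without the shallow young libraries (7), and ran from 0 to 1 with 1 library left out. Leaving out 1 library took the difference in the top 10 share from -0.847 to 1.15 percentage points and in detected miRNAs from 3.3 to 7.5, the last without young muscle 2 (exact permutation p = 0.0476).

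Signs turned only among miRNAs that did not pass; the causes were not tested. With upper-quartile factors let-7d-5p was at -0.13, miR-133a-3p -0.12, miR-150-5p -0.19, miR-206-3p -0.0132 and miR-1247-5p -0.12. With no filter miR-342-5p was at 0.0088 and let-7c-5p at 0.0058. Thinned, miR-342-5p was at 0.52, miR-345-3p -0.37 and miR-1247-5p -0.15. With the library total as a covariate (chosen after seeing the data) miR-342-5p was at 0.0591, miR-151-5p -0.0486, let-7d-5p -0.17, miR-133a-3p -0.0939, miR-92a-3p 0.11, miR-206-3p -0.15 and miR-19b-3p 0.11. Without the shallow young libraries (likewise) they were at 0.13, -0.0631, -0.12, -0.0512, 0.21, -0.0452 and 0.55, and miR-451a at 0.0475. With 1 library left out, let-7d-5p ran from -0.00269 to 0.21, miR-150-5p from -0.13 to 0.18, miR-342-5p from -0.40 to 0.10, let-7c-5p from -0.17 to 0.0537, miR-92a-3p from -0.18 to 0.0503 and miR-451a from -0.43 to 0.21.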
